A study of Mus musculus with 4 samples.

Results

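Integrins are the cell surface receptors that tie a cell to the matrix around it, and 10 of their subunit genes were followed here in differentiated 3T3-L1 cells treated with risperidone, an antipsychotic drug that blocks dopamine and serotonin receptors. The genes were selected by symbol, with no threshold on their values, and comprised 7 alpha subunits (Itga1, Itga3, Itga5, Itga6, Itga7, Itga11 and Itgav) and 3 beta subunits (Itgb1, Itgb3 and Itgb5) among the 16051 genes of the deposited table. 3T3-L1 is a mouse embryonic fibroblast line that can be driven to form fat cells in culture. The labels give the strain as NIH Swiss and no genetic change in either group. One treatment group received DMSO, the vehicle, and the other 100 µM risperidone for 48 h, and each was sequenced as 2 mRNA libraries. The labels call the vehicle group untreated, the tissue embryonic and the extraction one from retina, whereas the study's methods describe DMSO and differentiated 3T3-L1 cells. Each library held RNA pooled from 3 cultures of this line, so the spread between libraries is not that between cultures.

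Each integrin is a pair of 1 alpha and 1 beta chain that crosses the membrane, binds matrix outside the cell and connects to actin inside it through talin, kindlin and their partners. The beta1 chain pairs with many alpha chains, among them alpha1 and alpha11, which bind collagen, alpha3, alpha6 and alpha7, which bind laminins, and alpha5, the classical fibronectin receptor. The alphav chain pairs with beta1, beta3, beta5 and others and recognises the RGD tripeptide of fibronectin, vitronectin and related proteins. In fat cell formation a fibronectin-rich matrix is remodelled into a laminin-containing basement membrane, and preadipocytes are described as carrying alpha5 and fat cells as carrying more alpha6.

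The libraries held 15883712 to 16374119 estimated counts, so that a gene at 0 may still have had up to 3 counts, or 0.183 to 0.189 CPM. Of 12 adipocyte markers, 4 reached a mean of 1 FPKM (fragments per kilobase and mapped depth, a level per transcript length), with Lpl, the lipoprotein lipase, highest. The others of these 4 were Fabp4, Pparg and Cd36. The remaining 8, among them the mature fat cell genes Adipoq, Plin1, Cfd and Lep, stayed at or below 0.51 FPKM in every library. Retina markers summed to at most 1.28 FPKM. Summed over its markers, the adipocyte list was at 378 and 432 FPKM with DMSO and 266 and 277 FPKM with risperidone. Fabp4 went from 130 and 169 FPKM with DMSO to 59.5 and 71.2 FPKM with risperidone, and Lpl from 234 and 250 to 192 and 191 FPKM. Pparg was at 12.5 and 11.4 FPKM with DMSO and 12.8 and 12.5 FPKM with risperidone, and Cd36 overlapped between groups. Of the 4 adipocyte markers tested, 2 were called lower and 0 higher, where 32.2% of all genes tested were called lower. The fibroblast list was at 1099 and 1074 FPKM with DMSO and 1483 and 1449 FPKM with risperidone. Most of that rise was Col1a1, without which the list was at 719 and 705 FPKM with DMSO and 768 and 775 FPKM with risperidone. Of the 7 fibroblast markers tested, 4 were called higher and 1 lower, where 32.1% of all genes tested were called higher and 32.2% lower, with Dlk1, a preadipocyte marker, at 30.4 and 32.9 FPKM with DMSO and 81.7 and 83.3 FPKM with risperidone. Thy1 was at 35.8 and 36.7 FPKM with DMSO and 70.4 FPKM in both risperidone libraries, and Pdgfrb was at 21.8 and 20.2 FPKM with DMSO and 13.1 and 14.6 FPKM with risperidone. The smooth muscle list was at 111 and 105 FPKM with DMSO and 229 FPKM in both risperidone libraries, nearly all of it Acta2, the alpha smooth muscle actin also made by activated fibroblasts. Risperidone replicate 2 also carried kidney transcripts, with 195 FPKM summed over 13 kidney markers against 1.85 to 2.73 FPKM in the other 3 libraries. In bulk RNA, fewer cells of a kind and less RNA per cell cannot be told apart, and the part of these differences in the integrin results was not tested beyond the values without that library.

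Integrin RNA in these cells was dominated by the fibronectin and vitronectin receptor chains and the common beta1 chain. On the FPKM scale the order of mean level was Itgb1, Itga5, Itgav, Itgb5, Itga3, Itga6, Itga1, Itgb3, Itga7 and Itga11. Itgb1 ranked 138 of all 16051 genes and Itga5 ranked 791, whereas Itga6 and Itga1 ranked 9112 and 9640. Neighbours in this order did not overlap between libraries of the same group, and the order held in both groups except for Itgav and Itgb5. With DMSO the mean of Itgav was 1.40 times that of Itgb5. With risperidone it was 0.939 times that of Itgb5, and both Itgb5 libraries lay above both Itgav libraries.

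**Figure D1:**
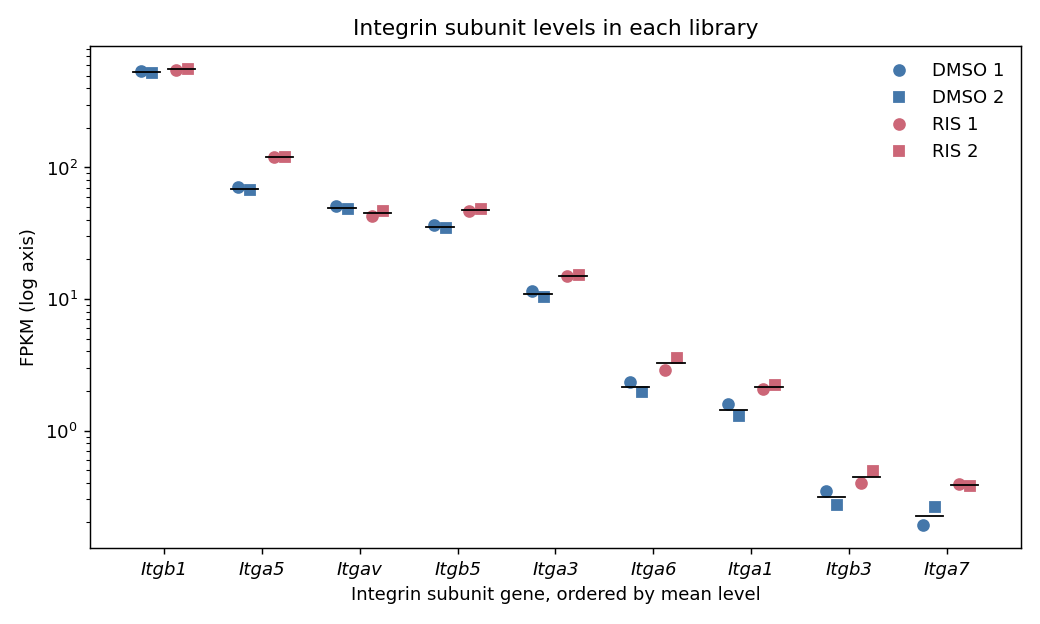
Expression of the integrin subunits other than Itga11 in each library, with FPKM on a log axis and 1 point per library for DMSO and risperidone. Itgb1 lies at 522.4 to 563.0 FPKM in the 4 libraries, and the risperidone points of Itga5 stand clear of the DMSO points. Itga11, at or below 0.03 FPKM, is not drawn.

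The difference between treatments was tested for the 7 subunits whose mean across libraries reached 1 FPKM, and all 7 exceeded 1 FPKM in each library. Of these 7, 6 were higher with risperidone, 0 were lower and Itgav did not pass the test, at an adjusted p under 0.05 by edgeR's quasi-likelihood test across 10243 genes. Over all genes tested, 32.1% were called higher and 32.2% lower, together 64.3%. The median log2 fold change of the 7 subunits was 0.56, against 0.00 over all genes tested. By FPKM alone, the libraries of the 2 groups did not overlap for 9 of the 10 subunits, Itga11 being the exception, and 82.2% of all tested genes had such a gap. A gap with risperidone above DMSO was found for 6 of the 7 tested subunits, against 32.4% of genes, and the reverse gap for Itgav, against 49.8% of genes. On the TPM scale 5 of the 7 lay wholly above DMSO, against 21.9% of genes. Itgb1 and Itgav lay wholly below, but the share of all genes with such a gap on TPM was not computed. The test on TPM called 3 of the 7 higher and 1 lower (limma), against 15.0% of all genes higher and 51.7% lower, and the median over all genes was then -0.22.

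**Figure D2:**
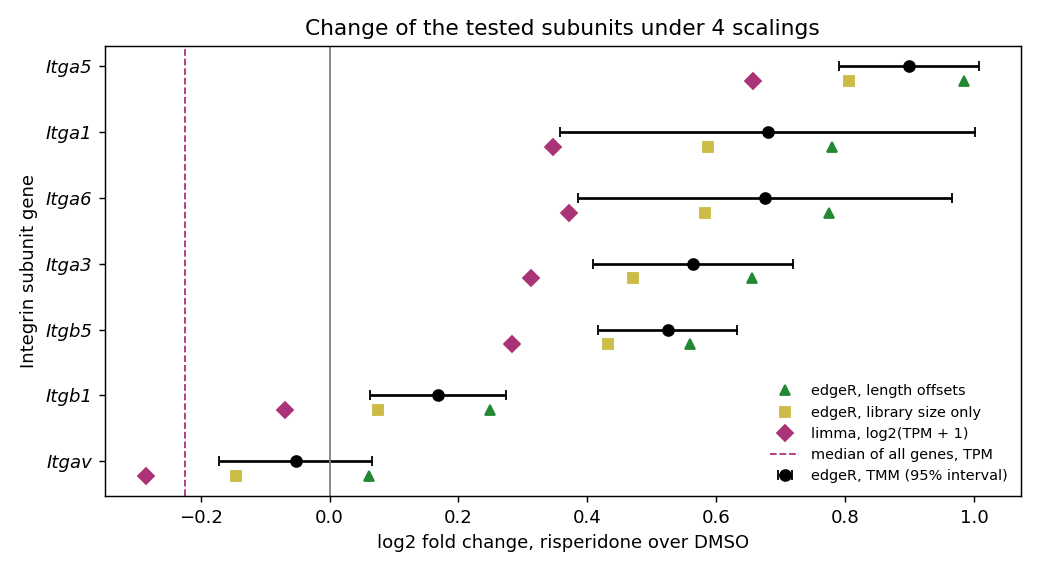
Log2 fold change of each tested integrin subunit, risperidone against DMSO, with its 95% confidence interval from edgeR and a line at 0. Itga5 is farthest to the risperidone side at 0.90, and the interval of Itgav, from -0.17 to 0.07, spans 0.

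Itga5, the alpha chain of the fibronectin receptor (NCBI Gene 16402; chromosome 15, 103344286 to 103366791 in GRCm38.p6, minus strand), showed the largest change of the set. Its level was 70.7 and 67.2 FPKM in the DMSO libraries and 119.9 and 120.9 FPKM in the risperidone libraries. Both risperidone libraries lay far above both DMSO libraries, and the libraries of a group lay close together. The DMSO mean was 68.9 ± 2.52 FPKM and the risperidone mean 120.4 ± 0.728 FPKM (SD, n = 2). Itga5 rose 1.86-fold, with a log2 fold change of 0.90 (SE 0.0490, 95% interval 0.79 to 1.01, adjusted p = 1.26e-07 by the edgeR quasi-likelihood test, Benjamini-Hochberg adjusted). Of the 10243 genes tested, 378 (3.69%) had a larger log2 fold change.

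Itgav, the alpha chain of the vitronectin receptors (NCBI Gene 16410; chromosome 2, 83722303 to 83806917, plus strand), did not pass the test. It measured 50.8 and 48.1 FPKM with DMSO and 43.0 and 46.6 FPKM with risperidone. The risperidone libraries were the lower ones, but the gap between the groups was 1.51 FPKM and narrower than the spread within either group. The log2 fold change was -0.05 (SE 0.0536, 95% interval -0.17 to 0.07, adjusted p = 0.407 by the edgeR quasi-likelihood test, Benjamini-Hochberg adjusted). Its direction depended on the scaling, since scaling to library size alone gave -0.15 (adjusted p = 0.0376, edgeR), TPM gave -0.28 (adjusted p = 0.00469, limma), and correcting each gene for length gave 0.06 (adjusted p = 0.180, edgeR).

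Itgb5, the beta chain that pairs with alphav (NCBI Gene 16419; chromosome 16, 33829665 to 33949338, plus strand), was upregulated. It was at 36.3 and 34.4 FPKM with DMSO and at 47.0 and 48.3 FPKM with risperidone, with no overlap. The change was 1.44-fold, or 0.52 on the log2 scale (SE 0.0489, 95% interval 0.42 to 0.63, adjusted p = 4.79e-06 by the edgeR quasi-likelihood test, Benjamini-Hochberg adjusted). On TPM it was 0.28 and still called (limma). Itgb3, the other vitronectin receptor beta chain and the platelet and osteoclast form (NCBI Gene 16416; chromosome 11, 104608000 to 104670476, plus strand), was expressed at a low level. It had 32 and 24 counts with DMSO and 37 and 44 counts with risperidone, a mean of 0.378 FPKM, and fell under the limit for testing. With no filter on low values its log2 fold change was 0.62 (SE 0.264, 95% interval -0.04 to 1.29, adjusted p = 0.129 by the edgeR quasi-likelihood test, Benjamini-Hochberg adjusted), so a difference did not pass the test at this depth, although the FPKM values did not overlap.

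Itgb1, the beta chain shared by the collagen, laminin and fibronectin receptors (NCBI Gene 16412; chromosome 8, 128685654 to 128733579, plus strand), changed little and its direction depended on the unit. On the FPKM scale it was at 540.2 and 522.4 with DMSO and 555.2 and 563.0 with risperidone. On the TPM scale, where each library sums to the same total, it was at 1119 and 1072 with DMSO and 1017 and 1071 with risperidone. The FPKM values of the risperidone libraries were thus above, and the TPM values below, those of both DMSO libraries, in TPM by a narrow margin. The fit on counts gave a log2 fold change of 0.17 (SE 0.0478, 95% interval 0.06 to 0.27, adjusted p = 0.00951 by the edgeR quasi-likelihood test, Benjamini-Hochberg adjusted), a rise that passed the test. Without DMSO replicate 1 the adjusted p was 0.0535, without DMSO replicate 2 it was 0.150, and limma on TPM gave -0.07 (adjusted p = 0.242).

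Of the laminin receptor chains, Itga3 and Itga6 rose. Itga3 (NCBI Gene 16400; chromosome 11, 95044475 to 95076844, minus strand) was at 11.4 and 10.3 FPKM with DMSO and at 14.8 and 15.2 FPKM with risperidone, and the groups did not overlap. Its fold change was 1.48, or 0.56 on the log2 scale (SE 0.0703, 95% interval 0.41 to 0.72, adjusted p = 4.03e-05 by the edgeR quasi-likelihood test, Benjamini-Hochberg adjusted). Itga6 (NCBI Gene 16403; chromosome 2, 71786886 to 71858427, plus strand) was lower in level, at 2.34 and 1.97 FPKM with DMSO and 2.91 and 3.57 FPKM with risperidone, from 183 to 333 counts. It changed 1.60-fold, or 0.68 on the log2 scale (SE 0.131, 95% interval 0.39 to 0.96, adjusted p = 0.000953 by the edgeR quasi-likelihood test, Benjamini-Hochberg adjusted). Its highest library was risperidone replicate 2, the one with kidney transcripts, and without that library the log2 fold change was 0.53 (adjusted p = 0.00311, edgeR). On TPM the log2 fold change of Itga3 was 0.31 (adjusted p = 0.00734, limma) and that of Itga6 0.37 (adjusted p = 0.0510, limma), the latter no longer called. Itga7, the laminin receptor chain of muscle (NCBI Gene 16404; chromosome 10, 128933421 to 128958286, plus strand), had 11 and 16 counts with DMSO and 23 and 24 counts with risperidone, and its log2 fold change with no filter was 0.88 (SE 0.370, 95% interval -0.05 to 1.82, adjusted p = 0.127 by the edgeR quasi-likelihood test, Benjamini-Hochberg adjusted).

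Of the collagen receptor chains, Itga1 (NCBI Gene 109700; chromosome 13, 114958079 to 115101964, minus strand) was detected at 1.58 and 1.28 FPKM with DMSO and 2.06 and 2.23 FPKM with risperidone, from 119 to 209 counts. The risperidone libraries were both above the DMSO libraries, with a fold change of 1.60 and a log2 fold change of 0.68 (SE 0.146, 95% interval 0.36 to 1.0, adjusted p = 0.00183 by the edgeR quasi-likelihood test, Benjamini-Hochberg adjusted). On TPM the log2 fold change was 0.35 (adjusted p = 0.0769, limma) and the call was lost. Pelo, a ribosome rescue factor, lies within the Itga1 locus on the same strand, and its own log2 fold change was 0.11 (adjusted p = 0.395, edgeR). Itga11 (NCBI Gene 319480; chromosome 9, 62677855 to 62783979, plus strand), the fibroblast receptor for fibrillar collagen, had 1, 1, 2 and 0 counts in DMSO replicates 1 and 2 and risperidone replicates 1 and 2. These counts were at or under the limit that a count of 0 allows, so no fold change is given.

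To show the start regions of the chains that moved and of those that moved little, the 250 bases upstream of an annotated transcript start are given for Itga5 and Itgb5, which rose, and for Itgb1 and Itgav. They come from RefSeq promoter windows of GRCm38.p6, which held 7 of the 10 subunits, and run 5′ to 3′ on the strand of the gene. The regions are chr15:103366792-103367041 on the minus strand for Itga5, chr16:33829415-33829664 for Itgb5, chr8:128685404-128685653 for Itgb1 and chr2:83724147-83724396 for Itgav, the last 3 on the plus strand. The windows of Itga5, Itgb5 and Itgb1 abut the edge of the RefSeq gene span. That of Itgav precedes a transcript start at 83724397, which lies 2094 bases inside the span, so it is not upstream of every annotated Itgav transcript. Capitals mark matches, on either strand, to GGGCGG (the GC box of Sp1) or GGAATG (the TEAD motif).

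Itga5: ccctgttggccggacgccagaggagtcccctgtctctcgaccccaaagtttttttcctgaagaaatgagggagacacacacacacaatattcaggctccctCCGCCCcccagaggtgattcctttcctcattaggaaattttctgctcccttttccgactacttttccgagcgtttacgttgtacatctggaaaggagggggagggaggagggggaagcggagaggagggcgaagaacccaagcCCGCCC
Itgb5: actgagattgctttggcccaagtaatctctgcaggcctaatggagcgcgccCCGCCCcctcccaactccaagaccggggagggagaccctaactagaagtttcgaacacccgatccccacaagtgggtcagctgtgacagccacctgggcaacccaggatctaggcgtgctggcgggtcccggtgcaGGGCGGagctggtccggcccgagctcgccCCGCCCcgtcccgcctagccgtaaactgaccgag
Itgb1: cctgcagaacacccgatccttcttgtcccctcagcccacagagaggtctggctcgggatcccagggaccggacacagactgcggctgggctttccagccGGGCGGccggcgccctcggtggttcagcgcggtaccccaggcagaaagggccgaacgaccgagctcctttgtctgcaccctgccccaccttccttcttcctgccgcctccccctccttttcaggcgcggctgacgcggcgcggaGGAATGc
Itgav: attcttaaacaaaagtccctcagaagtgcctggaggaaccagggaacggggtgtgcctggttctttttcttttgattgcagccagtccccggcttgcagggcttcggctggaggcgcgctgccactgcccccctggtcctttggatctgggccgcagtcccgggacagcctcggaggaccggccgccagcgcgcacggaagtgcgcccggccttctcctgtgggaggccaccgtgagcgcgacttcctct

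The Itga5 window held 2 GC boxes, the Itgb5 window 3 and the Itgb1 window 1, and the Itgav window held no match. Of the other subunits that rose, Itga1 had none of the motifs in its window, and Itga3 had 3 GC boxes in one window and 1 GC box with a CCAAT box in another. These Itga3 windows precede transcript starts that lie 130 and 7646 bases inside the gene span. Itga6, which also rose, had no window, and neither did Itga7 and Itgb3. Of all 32851 windows of this length, 32.7% had a GC box. The TEAD motif, found 7 bases before the start of Itgb1, was in 12.6% of windows. The other motifs searched, on both strands, had no match in these 4 windows. The CCAAT box was searched as CCAAT and held by 33.8% of all windows. The TATA box was searched as TATAAA and held by 12.4%. The AP-1 motif was searched as TGANTCA and held by 6.75%. The 4 windows held more CpG than the median of 6, with 11 in Itga5, 18 in Itgb5, 21 in Itgb1 and 18 in Itgav. Their GC content ran from 55.6% in Itga5 to 68.0% in Itgb1 against a median of 52.4%. The Itga5 window was not far from the middle, as 64.4% of all windows had fewer CpG and 60.1% a lower GC content. These matches describe letters in the window and not binding.

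The makeup of the alpha chains differed between the treatments. As a share of the summed TPM of the 16 listed alpha subunits, Itga5 made up 50.9% and 51.2% with DMSO and 64.5% and 63.1% with risperidone. Itgav made up 36.6% and 36.7% with DMSO and 23.1% and 24.3% with risperidone. The mean share of Itga5 was 12.7 percentage points higher and that of Itgav 12.9 percentage points lower (-12.9), while Itga3 held 7.85% to 8.23% in all 4 libraries with overlapping groups. Within each library, Itga5 was 1.39 and 1.40 times the TPM of Itgav with DMSO and 2.79 and 2.60 times with risperidone, a difference of 0.95 on the log2 scale. This ratio is free of any scaling common to a library. The exact two-sided permutation test gave p = 0.333 for each of these non-overlapping comparisons, which is the smallest p that 2 libraries against 2 allow.

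**Figure D3:**
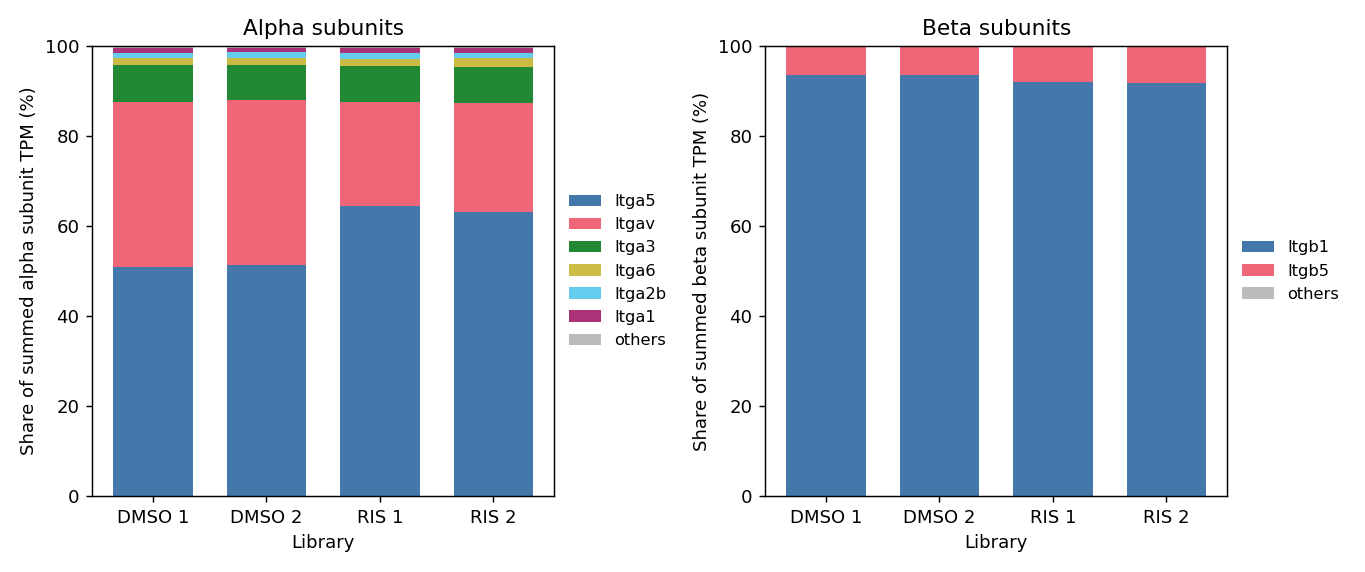
Share of each chain in the summed TPM of the alpha subunits (left) and of the beta subunits (right), in percent, as stacked bars for the 4 libraries. The Itga5 segment grows from 50.9% and 51.2% with DMSO to 64.5% and 63.1% with risperidone, and Itgb1 keeps over 90% of the beta subunit TPM.

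Among the 8 listed beta chains, Itgb1 held 93.5% and 93.6% of the summed TPM with DMSO and 92.0% and 91.8% with risperidone, and Itgb5 held 6.29% and 6.17% with DMSO and 7.78% and 7.88% with risperidone. These shifts of -1.66 and 1.60 percentage points did not overlap between groups. The ratio of Itgb1 to the summed TPM of the 7 alpha chains that pair with it was 3.94 and 4.05 with DMSO and 3.03 and 2.98 with risperidone, a difference of -0.41 on the log2 scale. The excess of beta1 RNA over that of its partners was thus smaller in both risperidone libraries, with an exact permutation p = 0.333. The log2 ratio of Itga6 to Itga5 differed by -0.22 and that of Itgb3 to Itgb5 by 0.11, and both overlapped between groups (exact permutation p = 0.667).

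The rest of the family was nearly silent. Of 17 further subunit names, 14 were listed in the table and 1, Itga2b, reached a mean of 1 FPKM. Itga2b, the platelet partner of beta3, was at 1.52 and 1.72 FPKM with DMSO and 2.51 and 2.34 FPKM with risperidone, above Itga1 in mean level. Its log2 fold change was 0.68 (adjusted p = 0.00337 by the edgeR quasi-likelihood test, Benjamini-Hochberg adjusted). Itgb2, the leukocyte beta chain, had 28 to 41 counts, Itga10 had 15 to 25 counts, and the other 11 had at most 8 counts in any library.

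Of the matrix proteins that these receptors bind, 10 collagen genes were tested, of which 2 rose and 6 fell, with a median log2 fold change of -0.20. The called share was 80.0%, against 64.3% of all genes tested, which split into 32.1% higher and 32.2% lower. Col1a1, a chain of the main fibrillar collagen, was at 379.8 and 368.3 FPKM with DMSO and 714.6 and 674.2 FPKM with risperidone, and rose by 0.99 on the log2 scale. Col3a1, another fibrillar collagen, was at 104.9 and 109.2 FPKM with DMSO and 49.3 and 53.8 FPKM with risperidone, a log2 fold change of -0.96, and Col5a2 changed by -0.47. Among the tested chains of the fibrillar collagens I, III and V, Col1a1 was the only one that rose, and the others were called lower in the fit on counts.

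Of 8 laminin and basement membrane genes tested, 4 rose and 1 fell, with a median of 0.27, and the called share of 62.5% was near the 64.3% of all genes. Lamb2, a laminin beta chain, rose by 0.58 on the log2 scale, and Nid2, a nidogen, changed by -0.69. Lamb2 was at 25.0 and 22.9 FPKM with DMSO and 33.5 and 33.7 FPKM with risperidone. Of 10 RGD-bearing or related ligands tested, 6 rose and 1 fell, with a median of 0.29 and a called share of 70.0%, against the same 64.3%. Cyr61, a matricellular protein bound by several integrins, had the largest change and was at 17.7 and 17.5 FPKM with DMSO and 77.2 and 70.2 FPKM with risperidone, a log2 fold change of 2.16. Thbs1, thrombospondin 1, rose by 0.77, and Tnc, tenascin C, changed by -1.01.

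Inside the cell, 37 of 40 adhesion proteins that link integrins to actin and signalling were tested, of which 19 rose and 8 fell, with a median of 0.14, and the called share was 73.0% against 64.3% of all genes. Lims2, the PINCH adaptor that binds integrin-linked kinase, was at 1.49 and 1.34 FPKM with DMSO and 5.74 and 5.17 FPKM with risperidone, a log2 fold change of 2.05 (SE 0.190). Dab2, an endocytic adaptor for integrins, rose by 1.07 and Parvb, the beta-parvin that binds the same kinase, by 1.05. Of 10 membrane partners tested, 5 rose and 2 fell, with a median of 0.14 and a called share of 70.0%. These shares lay near that of all genes. Without DMSO replicate 1 the test called 4 of the 10, and without risperidone replicate 2 it called 5 higher and 0 lower, so neither fall held without that library. Plaur, the urokinase receptor, rose by 1.69, from 12 and 15 counts with DMSO to 40 and 42 counts with risperidone, whereas Cd82, a tetraspanin, rose by 0.44 and Bsg, basigin, by 0.35. The ligands and partners named here all passed an adjusted p of 0.05 by the edgeR quasi-likelihood test, Benjamini-Hochberg adjusted. Their signs were the same under every scaling and left-out library tried, but each of the named rises was smaller on TPM. The log2 fold changes on TPM were 1.89 for Cyr61, 1.51 for Lims2, 0.96 for Plaur, 0.81 for Dab2 and 0.75 for Parvb and Col1a1. Those of Thbs1 (0.52), Lamb2 (0.34), Cd82 (0.19) and Bsg (0.11) were lower still. Of the falls, Col3a1 was at -1.19, Nid2 at -0.79, Col5a2 at -0.70 and Tnc at -0.91 on TPM. On TPM 15.0% of all genes were called higher and 51.7% lower (limma), and the lists split into 10 higher and 16 lower for the adhesion proteins and 2 higher and 5 lower for the membrane partners. The medians of these 2 lists turned to -0.11 and -0.10 on TPM, which was 0.11 and 0.12 relative to the median of all genes on TPM. The splits on TPM were 1 and 8 for the collagens, 3 and 2 for the laminins and 4 and 3 for the RGD ligands. The medians on TPM were -0.44 for the collagens, 0.03 for the laminins and 0.06 for the RGD ligands.

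**Figure D4:**
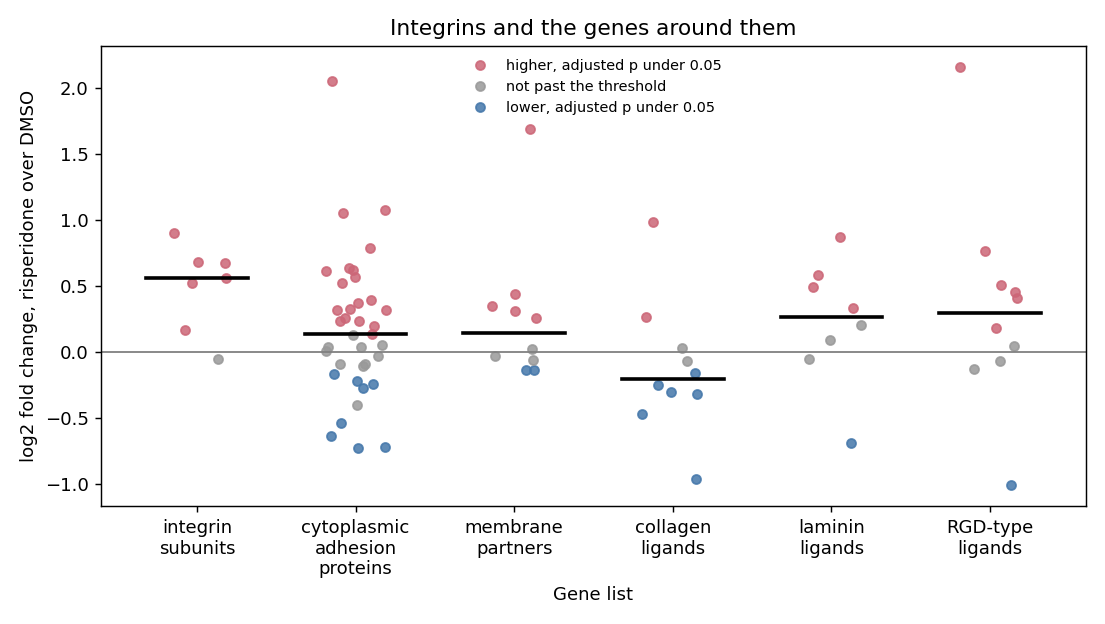
Log2 fold change, risperidone against DMSO, of each tested gene of the integrin subunits and of the 5 lists of ligands and partners, with 1 point per gene, coloured by its call, and a bar at the median of each list. The integrin subunits have the highest median at 0.56, the collagens the lowest at -0.20, and every list spans both sides of 0.

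Most of the tested subunit genes are long, and long genes as a whole tended to be lower with risperidone in these libraries. Among the 3576 tested genes within the effective length range of the 7 tested subunits, 3149 to 6985 bases, the median log2 fold change was -0.07, with 27.6% called higher and 40.2% lower. In 5 bins of equal size by length, the median went from 0.12 in the shortest genes to -0.11 in the longest. Itgb5, the shortest of the tested subunits, lay in the middle bin, where the median was 0.01. The 6 subunits that rose thus stood above the median of genes of like length, and with a length offset in the fit the same 6 were called higher. On TPM, where the median over all genes moved to -0.22 and 22.5% of all calls were higher against 49.9% in the fit on counts, 3 subunits were called higher (Itga3, Itga5 and Itgb5) and 1 lower (Itgav). Relative to that median Itga5 was at 0.88, Itgb1 at 0.15 and Itgav at -0.06.

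**Figure D5:**
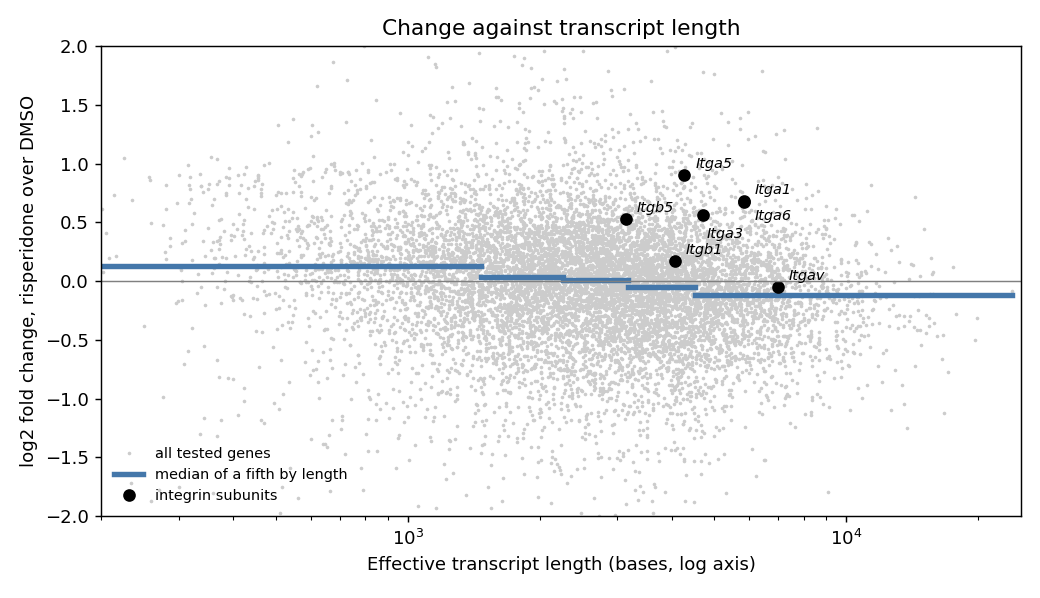
Log2 fold change, risperidone against DMSO, against effective transcript length on a log axis, with all tested genes in grey, the medians of 5 length bins and the 7 tested subunits named. The medians go from 0.12 to -0.11 with length, and the 6 subunits that were called higher lie above them, and 85 genes lie outside the axes.

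The genes whose profile over the 4 libraries was most like that of Itga5, by Euclidean distance of log2(FPKM + 1) from the own mean, were Sh3bp4, Ipo5 and Rilpl1, at distances of 0.0281, 0.0319 and 0.0356. Ipo5, an importin, was at 50.6 and 48.8 FPKM with DMSO and 84.8 and 87.5 FPKM with risperidone. The nearest to Itgav, the subunit with the lowest log2 fold change, were Amotl1, Col6a3 and Rhot2, at distances of 0.00857, 0.0169 and 0.0181. Col6a3, a collagen VI chain, was at 64.6 and 61.5 FPKM with DMSO and 55.2 and 58.9 FPKM with risperidone.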

How the data were processed

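Messenger RNA of differentiated 3T3-L1 cells was sequenced on MGISEQ-2000, and the authors then discarded adaptor, poly-N and low-quality reads. The submitters' processing notes name Bowtie2, RSEM, DESeq2 and the build GRCm38.p6, with versions not given in the sources used here. The deposited table gives, per gene, the estimated counts of the authors without normalization, FPKM values that the authors scaled to length and mapped reads, and TPM values that the authors deposited with the same sum in each library.

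Counts were rounded, and the 10243 genes averaging 1 FPKM or more across libraries entered edgeR 4.0.16 under R 4.3.3 (TMM, quasi-likelihood F-test, two-sided, Benjamini-Hochberg over all tested genes, threshold 0.05). TMM factors were 1.03 and 1.03 with DMSO and 0.963 and 0.973 with risperidone. limma 3.58.1 and DESeq2 1.42.0 served as alternatives, with other filters, pseudocounts of 0.1, 0.5 and 1 FPKM, length offsets and left-out libraries. Procedures were tested on simulated counts. Spearman's correlation between replicates was 0.990 with DMSO and 0.978 with risperidone, and the median chi-square of a gene's counts between replicates was 0.683 and 1.14, above the 0.455 of sampling noise, so replicates were kept as separate libraries. Limits at a count of 0 cover counting error. Groups came from the sample titles.

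All 10 subunits were named, with other subunits of at least 1 FPKM, the up to 3 largest called changes of each list and the 3 nearest profiles of the subunits with the highest and lowest log2 fold change. A gene that this rule would name is not reported here. The subunits and lists were chosen with earlier results of these data known. Lists were described by counts and medians, with no set test. Gene positions and promoter windows came from RefSeq on GRCm38.p6. Protein sequences were not analysed here.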

Additional observations from a re-analysis of the deposited data

How the results depend on the processing

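The calls of Itga5, Itgb5 and Itga3 held under every scaling, filter, pseudocount and left-out library tried, apart from a required absolute log2 fold change of 1. The rise of Itga1 and Itga6 was no longer called on TPM (adjusted p = 0.0769 and 0.0510, limma), and neither was tested at a mean of 5 FPKM. Itgb1 was the least stable call, as it was lost with library size alone (0.08), with limma on FPKM (0.07) and without either DMSO library. No subunit reached an absolute log2 fold change of 1, so that requirement left 0 called higher, and TPM left 3 higher. Library size alone and TPM each gave 1 lower. Reversed signs were those of Itgav with length offsets (0.0618), Itgb1 on TPM (-0.0696), the Itga3 share from raw counts (0.438 points) and without DMSO replicate 1 (0.113 points), and the log2 ratio of Itgb3 to Itgb5 with 1 TPM added (-0.12), without DMSO replicate 2 (-0.0368) and without risperidone replicate 2 (-0.0047). The cause was not tested.

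Over all genes, TPM gave 1536 higher and 5292 lower, and an absolute log2 fold change of 1 gave 267 and 401. That requirement left 3 called adhesion proteins, 1 membrane partner, 0 collagens, 0 laminins, 2 RGD ligands and 0 other subunits. A mean of at least 5 FPKM left 3 laminins and 0 other subunits, and DESeq2 called 4 membrane partners. From raw counts the shares moved by 13.8 points for Itga5, -14.8 for Itgav, -1.34 for Itgb1 and 1.29 for Itgb5. Leaving out each library in turn gave 5 to 6 subunits and 2666 to 3310 genes higher, 2725 to 3350 genes lower, 4 to 7 membrane partners, an Itga3 share shift of -0.271 to 0.113 points and a log2 ratio of Itgb3 to Itgb5 of -0.0368 to 0.26. Membrane partners numbered 4 without DMSO replicate 1. A replicate block, with numbers that pair no libraries by the labels (correlation of deviations -0.0603), gave 3292 genes higher and 3321 lower and kept every subunit call.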
